A study of Mus musculus with 94 samples.

Results

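The genes described here encode the translation initiation factors of mouse haematopoietic stem cells. They are the rows of the deposited expression table whose symbol begins with Eif1, Eif2, Eif3, Eif4, Eif5 or Eif6, without Eif2s3x, Eif2s3y, the Eif2ak kinases, Eif1ax and pseudogene symbols. This rule, which uses no measured value, took 47 of 13244 genes. The table holds 94 single cells of strain C57BL/6, of which 46 are Ski-KO and 48 are Ski-WT by their labels. Both genotypes share their history: fetal liver stem cells were transplanted, and after 6 months donor-type (Cd45.2+) cells were sorted from bone marrow as Lineage- c-Kit+ Sca-1+ Cd48- Cd150+ cells, a stem cell gate. The labels do not give the Ski allele, the recipients or the number of animals, and no dose or age.

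The 6-digit start of each cell's label splits the Ski-KO cells into prefix 051716 (27 cells) and prefix 051816 (19 cells), and every Ski-WT cell carries prefix 061016. The meaning of the prefix is not given, and genotype and prefix cannot be told apart. Without a named animal, donor or culture, a genotype is a single sample. Differences are therefore descriptions of these cells, with no test and no p-value.

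Values are TPM, a level scaled to each cell's total and corrected for transcript length, or log2(TPM + 1), and each value below names its scale. A cell is counted as holding a transcript at 5 TPM or more. TPM keeps no record of sequencing depth, so the intervals given with shares of cells cover the counting of cells only. The gate markers Kit and Ly6a reached 5 TPM in 79 and 56 of 94 cells, Slamf1, which encodes Cd150, in 11, and Cd48, which the gate excludes, in 0. In prefix 051716, prefix 051816 and Ski-WT, Kit did so in 23 of 27, 15 of 19 and 41 of 48 cells. Ly6a did so in 20, 7 and 29 cells in the same order, the smallest share being that of prefix 051816. Of the markers of other cells, the myeloid genes Lyz2 and Prtn3 reached 5 TPM in 56 and 57 cells, while Mpo, Elane, Ctsg and Csf1r did so in 0. The megakaryocyte genes did so in 29 cells for Pf4, 25 for Gp9, 16 for Itga2b, 5 for Vwf and 0 for Gp1bb. In mean log2(TPM + 1), Ski-KO minus Ski-WT, Prtn3 differed by -1.72 and Lyz2 by 0.22. The summed myeloid markers had medians of 306 TPM in prefix 051716, 256 TPM in prefix 051816 and 444 TPM in Ski-WT, and their part in the values below was not tested. Ski itself reached 5 TPM in 3 of 46 Ski-KO and 6 of 48 Ski-WT cells, too few to check the genotype labels.

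Initiation begins when eIF2, bound to GTP, brings the initiator tRNA to the small ribosomal subunit, together with eIF1, eIF1A, eIF3 and eIF5. eIF4E binds the mRNA cap, eIF4G is the scaffold that joins it to the helicase eIF4A and to eIF3, and the 4E-binding proteins compete with eIF4G for eIF4E. mTOR signalling phosphorylates and so releases the 4E-binding proteins, and eIF2B recharges eIF2 with GTP. Haematopoietic stem cells are known for a low rate of protein synthesis, and that rate can be set by phosphorylation of these factors, which RNA levels do not show.

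Levels differed widely among the 47 genes. Their mean over all cells ran from 2.94 TPM for Eif5a2 to 1236 TPM for Eif5a, with a median of 109 TPM beside 14.3 TPM for all genes. The median member reached 5 TPM in 46.8% of cells, against 9.57% for all genes. In all, 23 members reached 5 TPM in at least 50% of cells and 11 in fewer than 25% of cells. No member did so in every cell, and none was listed at 0 in all cells. Of the 2681 member values above 0, 21.3% lay under 5 TPM.

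**Figure D1:**
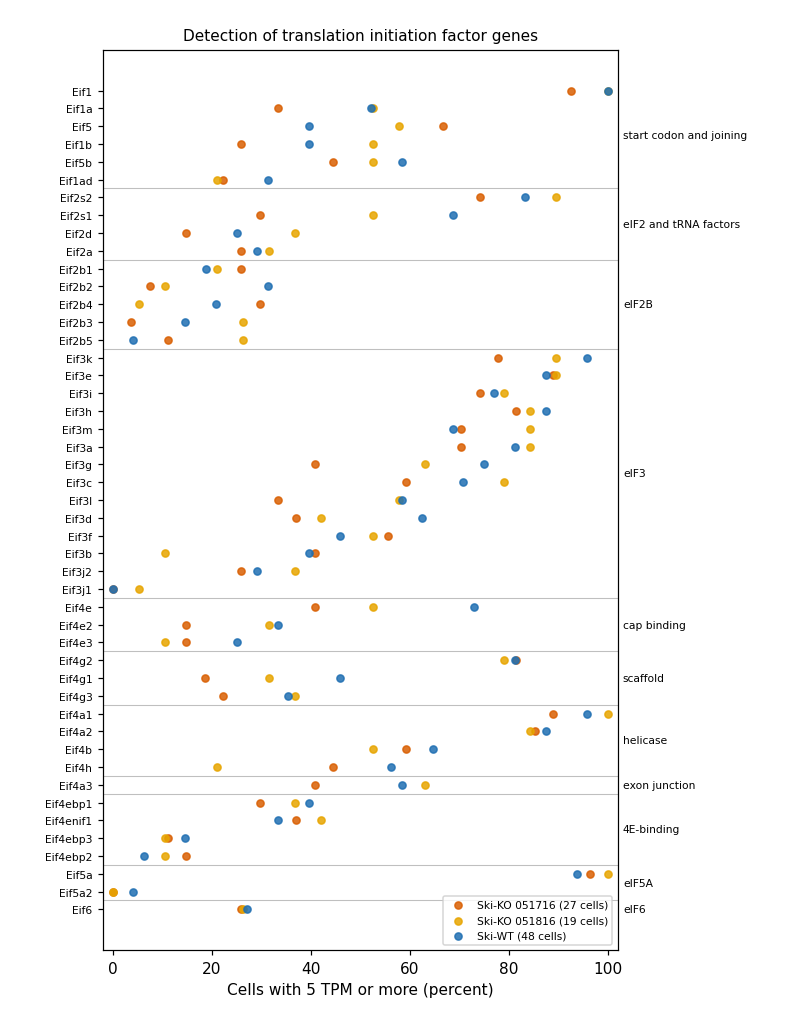
Percent of cells at 5 TPM or more (horizontal axis) for each of the 47 initiation factor genes, grouped by factor complex, in Ski-KO prefix 051716, Ski-KO prefix 051816 and Ski-WT. Eif1 and Eif5a lie near the right edge in all 3 sets of cells, while the eIF2B genes lie at the left.

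The steadiest members were those at the top of the range. Eif5a, which encodes the hypusinated factor that relieves ribosome stalling, reached 5 TPM in 90 of 94 cells with a coefficient of variation over cells of 0.72. Its level ran from 0.84 to 3294 TPM with a median of 723 in prefix 051716, from 26.6 to 3493 TPM with a median of 1893 in prefix 051816, and from 0 to 3795 TPM with a median of 1235 in Ski-WT. The Ski-KO prefixes thus lay on either side of Ski-WT, and all 3 ranges overlapped. Eif5a alone made up a median of 8.51%, 15.4% and 12.7% of the summed TPM of all members in a cell, in the same order. Its paralogue Eif5a2 reached 5 TPM in 2 cells and was below Eif5a in 93 of 94 cells.

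Eif1, which guards the choice of the start codon, reached 5 TPM in 92 of 94 cells, with a coefficient of variation of 0.74. In prefix 051716 it ran from 0 to 2287 TPM with a median of 658, in prefix 051816 from 34.8 to 1119 TPM with a median of 543, and in Ski-WT from 10.6 to 1218 TPM with a median of 447. Both Ski-KO medians were above that of Ski-WT, the ranges overlapped, and the mean difference, Ski-KO minus Ski-WT, was 0.28 on the log2 scale (0.30 and 0.24 for the prefixes). At the other end, Eif2b3, Eif3j1, Eif4ebp2 and Eif5a2 had coefficients of variation from 4.80 to 9.70, and each reached 5 TPM in at most 13 cells.

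To describe the genotypes, only genes detected above 0 in 25% or more of either genotype's cells were compared, which left 42 members and 6240 genes. Eif2b3, Eif3j1, Eif4ebp2, Eif4ebp3 and Eif5a2 did not pass this limit. A gene was counted when its mean log2(TPM + 1) differed by at least 1 between genotypes with both Ski-KO prefixes on the same side of Ski-WT. In this count 8 of the 42 members were lower in Ski-KO, beside 11.5% of all genes, and 3 were higher, beside 2.0% of all genes. The median member difference was -0.24 beside -0.22 for all genes, so by its median the set was placed like other genes. The shares counted in either direction were above those of all genes. They rest on few members and no test was made, so nothing particular to the set is read from them. With the limit at 50% of cells, 7 of 30 members (23.3%) were lower beside 16.4% of genes, and 2 (6.67%) were higher beside 2.55%.

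The prefixes differed in how low the members lay. The median member difference from Ski-WT was -0.48 for prefix 051716, where all genes had -0.27, and -0.14 for prefix 051816, where all genes had -0.20. Both prefixes were below Ski-WT for 19 members, both above for 8, and on opposite sides for 15. Over all 6240 genes the same counts were 2763, 1153 and 2324, so the members were divided much like all genes. Ski-KO and Ski-WT ranges overlapped for every member. This says little about the members, because nearly all had cells at or near 0 TPM in both genotypes. The share of all genes whose ranges overlapped was not counted.

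**Figure D2:**
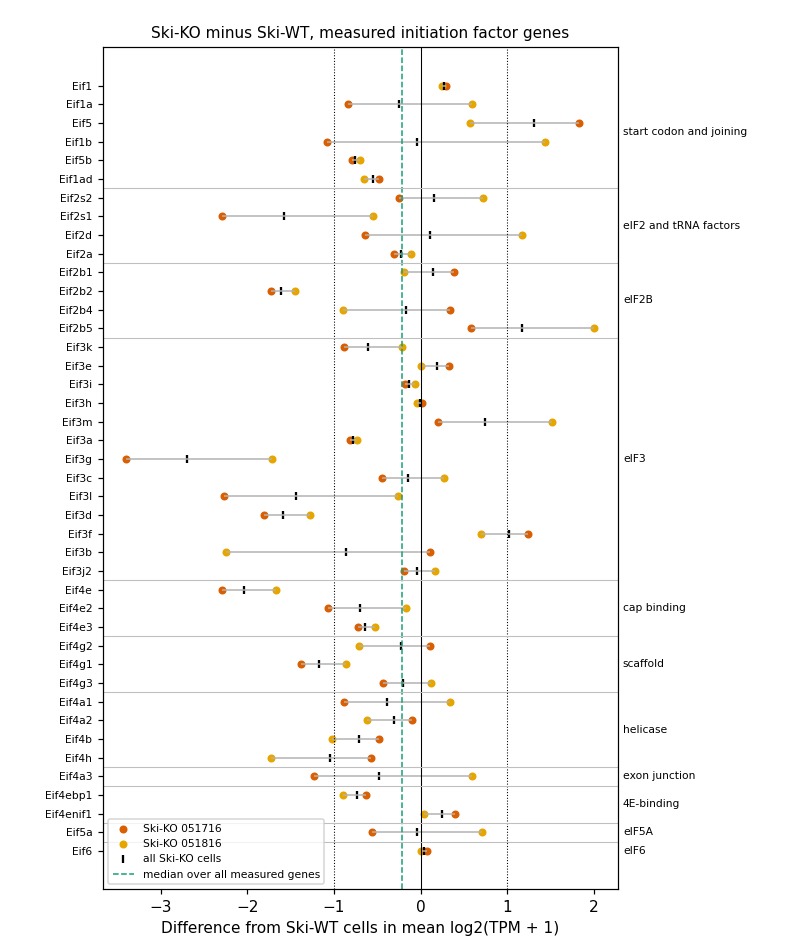
Mean log2(TPM + 1) in Ski-KO minus Ski-WT (horizontal axis) for the 42 initiation factor genes that passed the 25% limit, grouped by complex, with a point for each Ski-KO prefix, a tick for all Ski-KO cells, dotted lines at a difference of 1 either way and a dashed line at the median of all genes. Eif3g and Eif4e lie farthest to the left, and Eif5, Eif2b5 and Eif3f lie to the right of 1.

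RNA of many translation genes starts with an unbroken run of pyrimidines at its cap, the element through which mTOR acts on their translation. The letters around the annotated starts are shown for the 3 members that were higher in Ski-KO, for Eif4e with its 2 starts, and for Eif3g and Eif3l, which were lower, so that they can be read beside the values. The windows are RefSeq sequence of GRCm38.p6, 15 bases before and 15 from the start, 5′ to 3′ on the gene's strand. Capitals mark the longest unbroken run of C or T, of at least 5 bases, among those that touch the 5 bases on either side of the start, and shorter runs stay in lower case. Only the transcribed direction was searched.
Eif3f (chr7:108934400-108934429, plus strand): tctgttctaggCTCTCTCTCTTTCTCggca
Eif2b5 (chr16:20498802-20498831, plus strand): CCTTCCTCTTTCTCTCCCTgcaactacacc
Eif5 (chr12:111538086-111538115, plus strand): gagatcgacgtgcatgcgagccaatgacaa
Eif4e first start (chr3:138526176-138526205, plus strand): tgctaaaacagcagcggaggcggagggagc
Eif4e second start (chr3:138527253-138527282, plus strand): tcgCCCCCCCTTCaggagcggttgtgcgat
Eif3g (chr9:20898576-20898605, minus strand): tctttacccgggctgggagctgcgtggagt
Eif3l (chr15:79075208-79075237, plus strand): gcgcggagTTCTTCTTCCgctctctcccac

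Runs stood beside genes of either direction. Eif3f had a run of 15 bases and Eif2b5 a run of 21 bases that begins before the window, while Eif5, also higher in Ski-KO, had none. Among genes that were lower, Eif3l and the second start of Eif4e had runs of 10 bases and Eif4g1 of 6, and Eif3g, Eif3d, Eif2s1, Eif2b2 and Eif4h had none. Relative to the annotated start, the runs began at -4 in Eif3f, -17 in Eif2b5, -7 in Eif3l and -12 at the second start of Eif4e. That Eif4e run ended before the start, so it lies outside the RNA annotated from there. A start was listed for 36 members, of which 13 (36.1%) had a run, beside 36.4% of the 9882 genes of the expression table with a listed start. Runs of 10 bases or more were found for 5 of the 36 members (13.9%), beside 6.65% of those table genes. With limits of 9 and 8 bases the members stayed at 13.9%, beside 8.80% and 12.03% of table genes. The gap thus depended on the limit and was narrower at the shorter ones. A run is only a match of letters near an annotated start, and the start used in these cells was not measured. The counts include runs that lie wholly before the start, so they are not counts of RNA that begins with pyrimidines.

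Among the cap-binding genes, Eif4e, which encodes the cap-binding protein itself, had the highest level, with a mean of 304 TPM and 56 of 94 cells at 5 TPM. In prefix 051716 its median was 0.67 TPM and its highest value 1181 TPM, with 11 of 27 cells at 5 TPM. In prefix 051816 the median was 39.6 TPM and the highest value 1332 TPM, with 10 of 19 cells at 5 TPM. In Ski-WT the median was 240.4 TPM and the highest value 1869 TPM, with 35 of 48 cells at 5 TPM. All 3 sets of cells included cells at 0, so the ranges overlapped, and the typical Ski-KO cell lay far below the typical Ski-WT cell.

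The difference for Eif4e was -2.04 on the log2 scale (-2.29 and -1.68 for the prefixes), and the ratio of mean TPM was smaller, -0.73 as log2. The transcript was at 5 TPM in 45.7% of Ski-KO cells (exact 95% interval 30.9 to 61.0) against 72.9% of Ski-WT cells (58.2 to 84.7). Among cells at 5 TPM the median was 394 TPM in Ski-KO and 350.5 TPM in Ski-WT. Eif4e2, a cap-binding relative linked to repression, and Eif4e3 were sparser, at 5 TPM in 26 and 18 cells, and their differences were -0.70 and -0.64.

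Of the genes of the 4E-binding proteins, Eif4ebp1, the best known mTOR target among them, reached 5 TPM in 34 of 94 cells, Eif4ebp3 in 12 and Eif4ebp2 in 9. Eif4ebp1 was at a median of 0 TPM in each set of cells, with highest values of 1191 TPM in prefix 051716, 288 TPM in prefix 051816 and 878 TPM in Ski-WT. It was detected in 8 of 27, 7 of 19 and 19 of 48 cells, in the same order, and its difference was -0.74 (-0.63 and -0.90 for the prefixes), short of the limit of 1. Eif4ebp2 went the other way in number, with 6 of 46 Ski-KO and 3 of 48 Ski-WT cells, and Eif4ebp3 was in 5 and 7 cells. Eif4enif1, the carrier of eIF4E to the nucleus, was in 34 cells and differed by 0.25.

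The summed TPM of the 3 genes was set against Eif4e in each cell. It exceeded Eif4e in 27 of 94 cells, or 28.7% (exact 95% interval 19.9 to 38.98). By group this was 8 of 27 cells (29.6%) in prefix 051716, 6 of 19 (31.6%) in prefix 051816 and 13 of 48 (27.1%) in Ski-WT. These shares were close together, although fewer Ski-KO cells held Eif4e. The cells with neither at 5 TPM were 17 of 46 in Ski-KO (36.96%, interval 23.2 to 52.5) and 7 of 48 in Ski-WT (14.6%, interval 6.07 to 27.8). Cells with both were 11 of 46 and 18 of 48, and in these the 4E-binding genes were the higher in 3 and 7 cells.

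**Figure D3:**
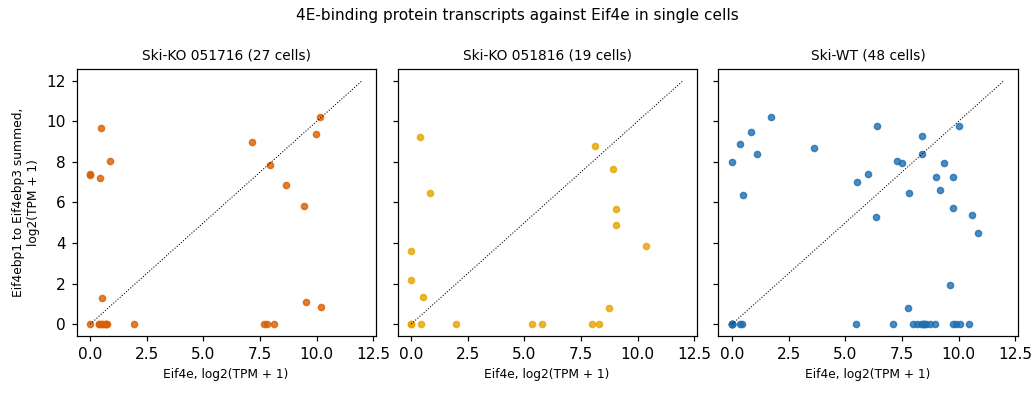
Summed TPM of Eif4ebp1, Eif4ebp2 and Eif4ebp3 (vertical axis) against TPM of Eif4e (horizontal axis), both drawn on a log scale as log2(TPM + 1), with 1 point per cell and a panel for each Ski-KO prefix and for Ski-WT. Of the 94 points 27 lie above the line of equal level, and 24 cells lie under 5 TPM on both axes.

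Across cells Eif4e and the summed 4E-binding genes were nearly unrelated on the log2 scale. Pearson's r was 0.26 in prefix 051716 (27 cells, Spearman's rho 0.22), 0.19 in prefix 051816 (19 cells, rho 0.27) and -0.05 in Ski-WT (48 cells, rho -0.06). The 2 levels of a cell come from the same library, and the correlations are given as a description.

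Scaffold genes differed in abundance. Eif4g2, a scaffold relative that lacks the eIF4E site, was the most abundant scaffold gene, with 165 TPM on average and 76 of 94 cells at 5 TPM, and lay above Eif4g1 in 78 cells. Eif4g1, the main scaffold, had medians of 0, 1.08 and 2.20 TPM in prefix 051716, prefix 051816 and Ski-WT, and highest values of 244, 67.7 and 713 TPM. It was at 5 TPM in 5 of 27, 6 of 19 and 22 of 48 cells, so it was sparse in every set and sparsest in prefix 051716. Its difference was -1.17 (-1.38 and -0.87 for the prefixes). Eif4g3 had the lowest mean TPM of the 3, 9.06, and differed by -0.21.

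Eif4a1 and Eif4a2 encode the paired forms of the helicase and were both common, at 5 TPM in 89 and 81 of 94 cells. Eif4a1 had medians of 146, 308 and 207 TPM in prefix 051716, prefix 051816 and Ski-WT, and Eif4a2 of 279.6, 168 and 345 TPM. Eif4a1 was the higher of the pair in 39 of 94 cells, 12 of 27, 10 of 19 and 17 of 48 in the same order. Neither form therefore dominated, and their levels across cells had r between -0.17 and 0.06 within the 3 sets of cells. Their differences were -0.38 for Eif4a1 and -0.31 for Eif4a2, with the prefixes on opposite sides of Ski-WT for Eif4a1 (-0.89 and 0.34). The transcript of Eif4a1 shares 67.5% of its 31-base stretches with other genes, chiefly Eif4a-ps4, so its level is uncertain.

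Eif4h and Eif4b encode the helicase's cofactors. Eif4h had medians of 3.45, 0 and 19.05 TPM and highest values of 654, 1616 and 1062 TPM in prefix 051716, prefix 051816 and Ski-WT. Cells at 5 TPM numbered 12 of 27, 4 of 19 and 27 of 48, lowest in prefix 051816. Its difference was -1.05 (-0.57 and -1.73), but as log2 ratio of mean TPM only -0.28, and leaving out any of 42 single cells brought it under the limit of 1. Eif4b differed by -0.71. Eif4a3, a core protein of the exon junction complex rather than a scanning helicase, had prefixes on opposite sides (-1.24 and 0.59).

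A cell was asked to hold Eif4e, a helicase form and Eif4g1 or Eif4g3 at 5 TPM together, the transcripts of the cap-binding complex. This was met in 4 of 27 cells (14.8%, interval 4.19 to 33.7) of prefix 051716, 6 of 19 (31.6%, 12.6 to 56.6) of prefix 051816 and 22 of 48 (45.8%, 31.4 to 60.8) of Ski-WT. The share was lowest in prefix 051716, and its interval overlapped those of the other sets of cells. Median numbers of genes above 0 per cell moved the same way in prefix 051716, with 3248, 3679 and 3670.5 genes in the same order, and their part in this share was not tested.

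The genes of eIF3, the largest complex, which docks the mRNA onto the ribosome, spanned means from 7.53 TPM for Eif3j1 to 734 TPM for Eif3e, a 97.5-fold range among its 14 genes. Eif3k had the highest mean log2 value, 7.92, and Eif3e, Eif3i and Eif3h followed. Of the 31-base stretches of Eif3j2, 93.95% also lie in Eif3j1, and of the longer Eif3j1 41% lie in Eif3j2, so reads could be split between them. Cells of prefix 051716 held 3 to 11 eIF3 genes at 5 TPM with a median of 8, those of prefix 051816 held 2 to 12 with a median of 9, and Ski-WT cells held 5 to 13 with a median of 9. All 12 of the subunit genes Eif3a to Eif3i and Eif3k to Eif3m were at 5 TPM in 5 of 48 Ski-WT cells and in 0 of 27 and 0 of 19 Ski-KO cells, where the intervals reach 12.8% and 17.6%.

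Eif3g, an RNA-binding subunit at the mRNA entry side, had the largest difference of all members. Its median was 0.93 TPM in prefix 051716, 52.5 TPM in prefix 051816 and 186 TPM in Ski-WT, and its highest values were 876, 684 and 1471 TPM. It was at 5 TPM in 11 of 27, 12 of 19 and 36 of 48 cells, so both Ski-KO sets lay below Ski-WT and prefix 051716 was the lower. The difference was -2.70 on the log2 scale (-3.40 and -1.72), and -1.41 as log2 ratio of mean TPM. Among cells at 5 TPM the median was 145 TPM in Ski-KO and 345 TPM in Ski-WT, so Eif3g was lower both in the number of cells and in the level within them.

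Eif3d, the subunit that can itself bind the cap of some mRNAs, had medians of 0, 2.29 and 59.9 TPM and highest values of 2320, 864 and 1616 TPM in prefix 051716, prefix 051816 and Ski-WT. It was at 5 TPM in 10 of 27, 8 of 19 and 30 of 48 cells, lower in both Ski-KO sets. The difference was -1.59 (-1.81 and -1.28), while the ratio of mean TPM was -0.23 as log2. Eif3l had medians of 0.67, 12.4 and 90.4 TPM and highest values of 1746, 1740 and 2535 TPM, and was at 5 TPM in 9 of 27, 11 of 19 and 28 of 48 cells. Its difference of -1.44 came from prefix 051716 (-2.27), with -0.26 in prefix 051816. Leaving out any of 5 cells of prefix 051816, numbers 35, 36, 37, 39 and 44 of the Ski-KO cells, each at 0 TPM, put that prefix above Ski-WT and ended the count of Eif3l, at a difference of -1.36.

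Eif3f was the subunit gene that was higher in Ski-KO. Its medians were 15.3, 18.02 and 2.69 TPM and its highest values 926, 939.5 and 293 TPM in prefix 051716, prefix 051816 and Ski-WT. Cells at 5 TPM numbered 15 of 27, 10 of 19 and 22 of 48, with both Ski-KO sets somewhat above Ski-WT and all ranges overlapping. The difference was 1.02 (1.24 and 0.69), just past the limit, and leaving out any of 45 single cells brought it under 1. Just inside the limit on the other side stood Eif4h. By size of difference, the members nearest outside the limit were Eif3b (-0.86) and Eif3a (-0.79), and Eif3m (0.75) among those higher in Ski-KO. Eif3b had its prefixes on opposite sides of Ski-WT (0.11 and -2.24), so the rule could not count it at any fold limit.

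**Figure D4:**
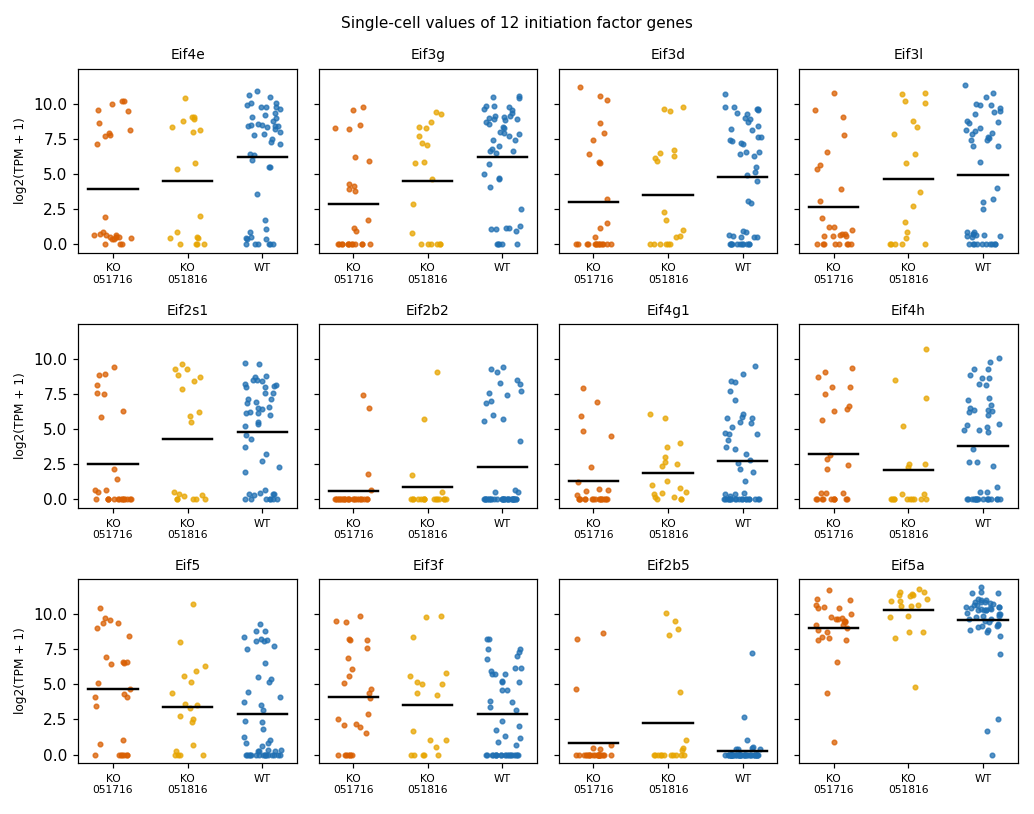
TPM per cell, drawn on a log scale as log2(TPM + 1), of the 11 members that differed by at least 1 between genotypes and of Eif5a, in Ski-KO prefix 051716, Ski-KO prefix 051816 and Ski-WT, with 1 point per cell and a bar at the mean. Except for Eif5a, every panel shows cells at 0 in all 3 sets, and Eif3g and Eif4e show more cells near 0 in the Ski-KO sets.

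Among the genes of eIF2, Eif2s1 encodes the alpha subunit of eIF2, the site that stress kinases phosphorylate. Its medians were 0, 45.05 and 65.97 TPM and its highest values 686, 773 and 840 TPM in prefix 051716, prefix 051816 and Ski-WT, with 8 of 27, 10 of 19 and 33 of 48 cells at 5 TPM. The low set was prefix 051716, and all ranges overlapped. The difference was -1.58 (-2.30 and -0.55), but the means were close, 131 TPM in Ski-KO and 136 TPM in Ski-WT, and among cells at 5 TPM the median was higher in Ski-KO, at 312 against 121 TPM. Eif2s2, the beta subunit, was at 5 TPM in 77 of 94 cells and differed by 0.15, with prefixes on opposite sides (-0.25 and 0.72). Both subunits together were at 5 TPM in 7 of 27, 10 of 19 and 29 of 48 cells.

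The 5 eIF2B genes were uniformly sparse, with mean levels from 37.7 to 81.4 TPM, a 2.16-fold range. No cell held all 5 at 5 TPM, and 36 of 94 held none, 11 of 27 and 8 of 19 in the Ski-KO prefixes and 17 of 48 in Ski-WT. Eif2b2, a subunit of the regulatory core, had a median of 0 TPM in each set, with highest values of 174, 539 and 678 TPM in prefix 051716, prefix 051816 and Ski-WT, and was at 5 TPM in 2 of 27, 2 of 19 and 15 of 48 cells. It was rare in both Ski-KO prefixes, and its difference was -1.61 (-1.73 and -1.45). Eif2b5, the catalytic subunit, also had a median of 0 TPM in each set, with highest values of 402, 1068 and 149 TPM, and was at 5 TPM in 3 of 27, 5 of 19 and 2 of 48 cells. Its difference was 1.17 (0.58 and 2.01), and leaving out Ski-KO cell 34 or 38, at 737 and 1068 TPM, brought it to 0.99 or 0.98. Both differences rest on few cells. The other eIF2B genes, Eif2b1 (0.15), Eif2b4 (-0.17) and Eif2b3 (-0.05, under the 25% limit), were nearer to 0 over all Ski-KO cells, and each had its prefixes on opposite sides of Ski-WT.

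Of the genes for start codon recognition and subunit joining, Eif5, which triggers GTP hydrolysis by eIF2, had medians of 24.9, 8.86 and 0.93 TPM and highest values of 1392, 1629 and 622 TPM in prefix 051716, prefix 051816 and Ski-WT. Cells at 5 TPM numbered 18 of 27, 11 of 19 and 19 of 48, a larger share in both Ski-KO sets. The difference was 1.31 (1.83 and 0.57). Among cells at 5 TPM its median was lower in Ski-KO, at 76.6 against 179 TPM. Its mean over all cells was higher in Ski-KO, at 173 against 75.6 TPM, or 1.18 as log2 ratio. Median and mean thus differed in direction. Eif5b, which joins the ribosomal subunits, differed by -0.75 (-0.79 and -0.70). Eif1b, the sparser relative of Eif1, had prefixes far apart (-1.09 and 1.44). Eif6, which keeps the large subunit from joining too early, was at 5 TPM in 25 of 94 cells and differed by 0.04.

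Of the 8 members that were lower, 5 also had lower medians among the cells at 5 TPM when all Ski-KO cells were pooled. These were Eif3g, Eif3l, Eif3d, Eif2b2 and Eif4g1. Only Eif3g was lower in both prefixes, at 74.3 TPM in prefix 051716 and 177 TPM in prefix 051816 against 345 TPM in Ski-WT. For Eif3l, Eif3d, Eif2b2 and Eif4g1 the prefixes lay on opposite sides of Ski-WT. The Ski-KO median of Eif2b2 rests on 4 cells. Eif4e, Eif2s1 and Eif4h had higher medians among the cells at 5 TPM, pooled and in both prefixes. The log2 scale gives weight to whether a cell holds the transcript at all, and the mean TPM gives weight to the highest cells.

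The mean log2 value over all 47 members was computed for each cell. It ran from 1.85 to 4.97 with a median of 3.31 in prefix 051716, from 2.06 to 5.17 with a median of 3.92 in prefix 051816, and from 2.60 to 6.24 with a median of 3.78 in Ski-WT. Prefix 051716 was the lowest by its median and the ranges overlapped widely. The difference in means was -0.36 (-0.50 and -0.15), beside -0.14 (-0.16 and -0.11) for the mean over all genes. Among only the genes compared between genotypes above, it was -0.40 for members and -0.26 for all genes. Lower values in Ski-KO were thus not confined to the members. Per cell, the member mean and the mean of all those compared genes had r of 0.77, 0.85 and 0.74 in prefix 051716, prefix 051816 and Ski-WT. A cell held medians of 20, 24 and 23 members at 5 TPM in the same order. The summed TPM of the members did not follow this order, with medians of 9426, 10583 and 8982 TPM, or 0.94%, 1.06% and 0.90% of a cell's total.

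**Figure D5:**
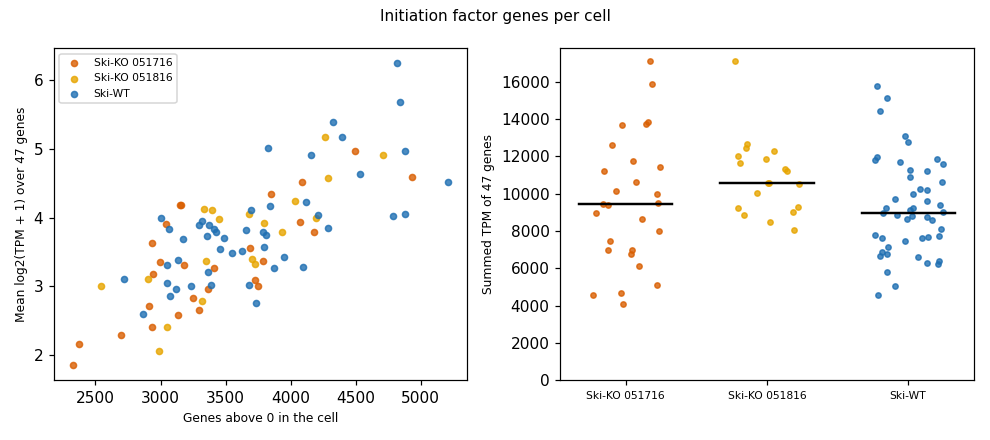
Mean log2(TPM + 1) over the 47 initiation factor genes in each cell (vertical axis) against the number of genes above 0 in that cell (horizontal axis) at left, and their summed TPM per cell by set with a bar at the median at right, with 1 point per cell. The mean is higher in cells with more genes above 0, with r of 0.74, 0.79 and 0.70 in prefix 051716, prefix 051816 and Ski-WT.

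The per-cell mean moved with how many genes a cell showed. Its Pearson's r with the number of genes above 0 was 0.74 in prefix 051716 (27 cells, rho 0.67), 0.79 in prefix 051816 (19 cells, rho 0.77) and 0.70 in Ski-WT (48 cells, rho 0.66). Both measures come from the same library and share its depth. With the cell cycle genes r was 0.38, 0.68 and 0.60, and the cycle genes were themselves correlated with the number of genes above 0, at 0.58, 0.81 and 0.80. With the ribosomal protein genes r was 0.42, -0.21 and -0.28, so the machinery's 2 gene sets did not move alike in the 3 sets of cells. Between single members the median pairwise r was 0.05, 0.06 and 0.05 over all measured pairs and 0.07, 0.10 and 0.07 within eIF3.

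Partners and regulators were taken from a list of 41 table genes that are no members, of which 32 passed the 25% limit. Of these 0 were higher by the rule above and 1 was lower, Paip1, which encodes a poly(A)-binding protein partner, at -1.09 (-1.20 and -0.93). This is 3.13% beside the 11.5% of all genes, and the list's median difference was -0.21. Pabpc1, the main poly(A)-binding protein, had nearly equal prefix differences of 0.64, and Ppp1r15a, the stress-induced subunit of the eIF2 phosphatase, differed by 0.93. Eef1g, of the elongation factor that reloads eEF1A, and Abce1, the ribosome recycling factor, both differed by -0.96. Among the most abundant of their roles, Eef1a1 had a mean log2 value of 13.40 and Rps6 of 11.72, each at 5 TPM in all 94 cells, and Mknk2, an eIF4E kinase, of 3.43 in 48 cells. The kinase Mtor was at 5 TPM in only 7 cells.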

How the data were processed

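Each deposited sample is 1 mouse cell, captured on a Fluidigm C1 chip, with SMARTer cDNA and Nextera XT libraries, per the labels' protocols. Bowtie2, RSEM and mouse build mm9 appear, with no role or version, per the submitters' processing notes. The authors deposited log2(TPM + 1), a scale inferred from the numbers: back-transformed, each cell summed to between 997625 and 999995 TPM. Depth per cell is unknown from such values, and there are no molecular identifiers. Duplicates were looked for, and the most similar cells had a correlation of 0.53.

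From these values the mean log2 in Ski-KO cells minus that in Ski-WT cells was computed for every gene, with the pseudocount of 1 as deposited, also per Ski-KO prefix. The filter, the limit of 5 TPM, and the fold limit of 1 are given in the text. Intervals are exact Clopper-Pearson at 95%. No cell was left out, and no doublet caller or clustering was run. Cells are not replicates, so no test was made. Genes named were the highest and lowest of each complex, the 5 highest and 5 lowest by the smaller prefix difference, every member past the fold limit, Eif4e, the 4E-binding genes, Eif4a1, Eif4a2, Eif5a and Eif6, and of the partners the 3 highest and 3 lowest and the most abundant of each role. Others, including Eif1b, Eif2d, Eif3b and Mtor, were chosen after their values were seen, and not every gene the rule takes is printed. Members and lists were chosen with earlier results of these data known. Alternatives covered pseudocounts, linear means, rescaling, filters, single prefixes and a covariate. Shared sequence was counted as 31-base stretches of GENCODE protein-coding transcripts found in other genes. The arithmetic was tested on simulated data. The tools were scipy 1.17.1, pandas 2.3.3, numpy 2.4.6, matplotlib 3.10.9 and Python 3.11.15.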

Additional observations from a re-analysis of the deposited data

How the results depend on the processing

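Of the 8 members lower and 3 higher in Ski-KO, a pseudocount of 10 left 2 and 0 of 42 (2.74% and 0.27% of all genes), the log2 ratio of mean TPM gave 5 lower and 4 higher (16.8% and 9.50%), and a limit of 0.58 in place of 1 gave 15 lower (26.1%). With genes above 0 as a covariate the counts were 6 lower and 4 higher (7.10% and 3.85%), and with quantile normalization also 6 and 4 (6.67% and 4.52%). Leaving out 1 cell at a time, an alternative chosen after seeing the data, gave 6 to 8 lower and 1 to 3 higher. The count of 1 came without Ski-KO cell 34, when both Eif2b5 and Eif3f were under the limit. All 11 of these genes kept their direction in the 9 settings of scale, normalization and prefix. In the settings with a single prefix this was fixed in advance, because the count required both prefixes on that side. Eif3g alone stayed past 1 in all 9, followed by Eif4e and Eif2b2 in 8. The median member difference ranged from -0.48 to 0.02, the latter with quantile normalization, which moved the median of all genes by 0.21. The per-cell difference of -0.36 became 0.046 as log2 ratio of mean TPM. The share of cells with 4E-binding genes above Eif4e stayed between 23.9% and 37.9% in Ski-KO and between 27.1% and 31.7% in Ski-WT. The cause of these shifts was not tested. Depth is unknown, so a value of 0 cannot be told from a missed transcript. No paired analysis was possible because the cell numbers in the titles are only names and do not match cells across genotypes. The alternatives without Argonaute genes were not run, since the rule took no such row.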

Other observations

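Pdcd4, which encodes an inhibitor that binds eIF4A and keeps it from the scaffold, was among the most abundant genes of the partner list. It was at 5 TPM in 94 of 94 cells, with a mean of 1239.5 TPM. Its median was 773 TPM in prefix 051716 (31.9 to 4267), 752 TPM in prefix 051816 (22.9 to 17913) and 717 TPM in Ski-WT (33.6 to 7885). The 3 sets of cells lay close together, and the difference was 0.19. Pdcd4 exceeded the summed TPM of Eif4a1 and Eif4a2 in 51 of 94 cells, or 54.3% (exact 95% interval 43.7 to 64.6). By set this was 15 of 27, 12 of 19 and 24 of 48 cells. In Ski-WT the cells were thus evenly split. This comparison was chosen after the values were seen, and RNA levels do not give protein levels.

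Several members had Ski-KO prefixes far apart. Eif2d, a factor that can deliver tRNA without eIF2, differed from Ski-WT by -0.64 in prefix 051716 and 1.17 in prefix 051816. Eif1b differed by -1.09 and 1.44, and Eif4a3 by -1.24 and 0.59. For Eif3b the order was the other way, 0.11 and -2.24.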
